A study of Mus musculus with 36 samples.

Results

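Solute carriers, the membrane proteins encoded by the Slc genes, were examined as targets of Ago2 in mouse colonic tumours. A merged Ago2 peak was a member when its annotated gene had a symbol made of Slc and a number, except for Slc26a3 and Slc9a3, whose 4 peaks were left out. This gave 153 peaks on 76 genes, of 7585 annotated peaks on 3933 gene names. The symbol was the only criterion, so Slc9a3r1 is included although it encodes NHERF1, a scaffold that anchors transporters and carries no solute itself. No measured value entered this rule, although it was set with earlier results of these data known. The peaks themselves were called from signal in these same tumours. The G12D tumours came from C57BL/6 mice with 1 K-Ras-G12D/+ allele, and the WT tumours from mice without it. Both groups also carried Halo-Ago2/+, the tamoxifen-inducible Cre line Villin-CreER/+, and Apc(fl/fl), so Apc was deleted in every tumour, in the gut epithelium where Villin drives Cre. A 4-hydroxytamoxifen enema at 5 mg/ml, given to animals of 8 to 12 weeks, started the tumours. Tissue was collected from moribund animals and received 3 rounds of UV crosslinking, each of 400 mJ/cm2. There were 6 tumours of each genotype, in 2 batches of 3 tumours per genotype, and the labels do not state in words that each number is a separate mouse.

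Solute carriers move amino acids, sugars, ions, metals, nucleotide sugars, vitamins and lipids across the plasma membrane and the membranes of organelles. In the colon they absorb short-chain fatty acids and salt, load cells with chloride for secretion, and supply dividing crypt cells with amino acids, iron and zinc. A miRNA bound to Ago2 pairs through its seed, bases 2 to 8 from its 5′ end, with a complementary stretch of an mRNA, usually in the 3′ UTR. Such pairing is known to shorten the life of the mRNA and to reduce its translation. In the pulldown, crosslinked mRNA fragments are sequenced and appear as peaks, so the height of a peak depends both on how much of the mRNA is present and on how much Ago2 sits on it.

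The authors' annotation lists the miRNA seed families that match each peak. The 5 families found on most Slc peaks, counting 8mer, 7mer-m8 and 7mer-A1 matches, were let-7 and miR-98, miR-15 and miR-16, miR-17 with miR-20, miR-93 and miR-106, miR-19, and miR-27. The mature sequences of the 2 members of each family with the highest mean in the Ago2-bound miRNA libraries show which letters the sites answer to. They are from RefSeq, build GRCm38.p6, 5′ to 3′, with the seed in capitals.
let-7i-5p: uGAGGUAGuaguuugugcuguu
let-7b-5p: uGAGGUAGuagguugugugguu
miR-16-5p: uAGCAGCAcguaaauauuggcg
miR-15a-5p: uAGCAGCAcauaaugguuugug
miR-20a-5p: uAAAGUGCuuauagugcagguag
miR-93-5p: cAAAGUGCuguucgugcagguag
miR-19b-3p: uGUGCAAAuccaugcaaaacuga
miR-19a-3p: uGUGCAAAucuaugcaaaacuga
miR-27a-3p: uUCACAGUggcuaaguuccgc
miR-27b-3p: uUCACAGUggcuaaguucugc
The complement that an mRNA needs for the full seed is CUACCUC for let-7, UGCUGCU for miR-16, GCACUUU for miR-20a, UUUGCAC for miR-19b and ACUGUGA for miR-27a. Within each family the printed members share every base of the seed, so the peaks cannot tell the members of a family apart.

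The let-7 family was the most frequent. It had a site on 24 Slc peaks of 24 different genes, 15.7% of the Slc peaks against 10.3% of all annotated peaks. Of the 24 peaks, 9 lay in 3′ UTRs, 10.7% of Slc 3′ UTR peaks against 7.79% of all 3′ UTR peaks. At 8 of the 24 the site was an 8mer, on Slc16a12, Slc16a3, Slc16a5, Slc25a13, Slc35d2, Slc46a1, Slc8a1 and Slc8b1. These 8 include 3 genes of the monocarboxylate transporter family and both sodium/calcium exchangers among the members. The family of miR-15 and miR-16 was on 13 Slc peaks (8.50% against 6.24% of all), the miR-17 family on 11 (7.19% against 5.60%), miR-19 on 8 (5.23% against 3.03%) and miR-27 on 8 (5.23% against 3.89%). Further down the order, miR-200 with miR-429 and miR-29, an epithelial and a collagen-linked family, each had 7 Slc peaks (4.58%), against 5.68% and 6.10% of all annotated peaks. These shares are descriptions, since peaks on the same mRNA are not independent of one another.

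**Figure D1:**
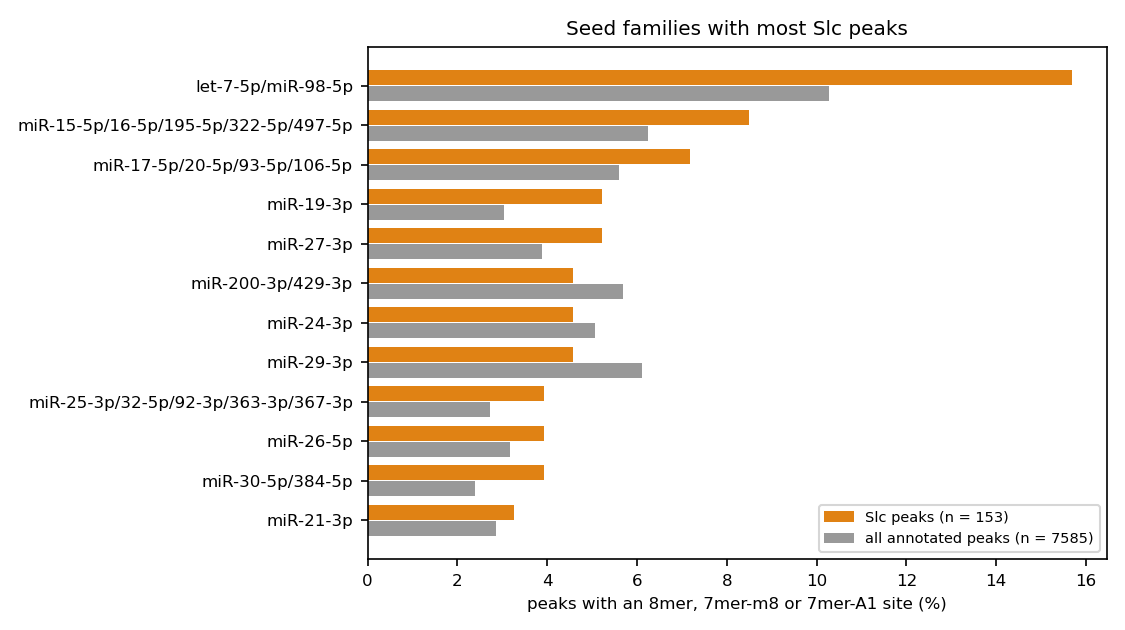
Share of peaks with an 8mer, 7mer-m8 or 7mer-A1 site of each seed family (horizontal axis, percent) for the 12 families with most Slc peaks, for the 153 Slc peaks (orange) and all 7585 annotated peaks (grey). The let-7 bar is the longest in both, at 15.7% of Slc peaks and 10.3% of all.

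Of the Slc peaks, 84 lay in 3′ UTRs (54.9%, 95% Wilson interval 47.0% to 62.6%), 48 in exons outside the UTRs (31.4%), 12 in introns (7.84%) and 9 in 5′ UTRs (5.88%). Over all annotated peaks the shares were 51.9%, 32.2%, 12.1% and 3.74% in the same order. The 12 intron peaks were on 8 genes, 4 of them on Slc12a2. A strong site, meaning an 8mer, 7mer-m8 or 7mer-A1, was annotated on 121 Slc peaks (79.1%) against 76.0% of all, and 20 Slc peaks had no site of any kind. The typical Slc peak was as wide as the typical peak of the series, with a median of 56 bases in both. It was also about as high: the median over peaks of the mean normalised count, the read count divided by its library's size factor, was 17.1 for Slc peaks and 18.7 over all peaks. A single peak was found on 46 Slc genes, 2 peaks on 15 genes, and 3 or more on another 15 genes, which together held 77 of the 153 peaks. The 4 Slc26a2 peaks furthest downstream, annotated as 3′ UTR, lay outside the span of that gene in RefSeq. At 4 Slc peaks (2.61%) the annotation also named another gene, so their reads could come from either. Among them were 2 peaks of Slc10a5 and 1 of Slc35a3, where the other gene is known only by a clone identifier.

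The mRNA libraries differed in depth, which bears on every comparison that follows. Reads recovered in all peaks ranged from 125384 to 974013 in G12D libraries and from 30607 to 770237 in WT libraries. WT replicates 5 and 6 were the shallowest: of the 153 Slc peaks, 81 (52.9%) had no read in WT replicate 5 and 48 (31.4%) none in WT replicate 6, against 0 to 5 in each of the other 10 libraries. A single read was worth 4.53 normalised counts in WT replicate 5. Both libraries are in batch 2. Markers of the tissue were present as peaks for 11 of 15 epithelial genes, with summed levels of 4252 to 10348 in G12D and 770 to 10190 in WT libraries. Of other cell types, 3 of 14 fibroblast and smooth muscle markers had a peak (Col1a1, Col1a2 and Col3a1, summed 218 to 709 in G12D and 18.1 to 679 in WT), 1 of 16 leukocyte markers (H2-Eb1, 39.4 to 116 in G12D and 9.06 to 147 in WT) and 1 of 13 endothelial and nerve markers (Ret, 22.1 to 112 in G12D and 0 to 32.2 in WT). No peak was listed for Acta2, Ptprc, Cd68, Csf1r or Pecam1. The samples are bulk tissue, in which fewer cells of a type and less RNA per cell cannot be told apart, and the part of cell composition in the results was not tested.

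Slc peaks held 2.00% ± 0.225 of all normalised peak counts in G12D and 1.60% ± 0.474 in WT tumours (SD, n = 6 each). Without WT replicates 5 and 6 the WT share was 1.89% ± 0.0947 (SD, n = 4). The ranges overlapped, with 1.62% to 2.22% in G12D and 0.794% to 2.00% in WT libraries. Part of the share was that of Slc12a2 alone. Without this gene the ranges were 1.42% to 1.91% in G12D and 0.722% to 1.73% in WT libraries.

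The highest Slc peak was on Slc12a2, which encodes NKCC1, the basolateral sodium-potassium-chloride cotransporter that loads crypt cells with chloride for secretion. It lay in an exon outside the UTRs at chr18:57899282-57899335 and carried a site of the family of miR-25 and miR-92. Its normalised count was lowest at 266, with a median of 881 and a highest value of 2713, over the 6 G12D libraries, against 67.9, 331 and 605 over the 6 WT libraries. The 3 highest libraries were the G12D libraries of batch 2, and the groups overlapped. The limma log2 fold change, on log2(value + 1), was 1.56 (SE 0.63, adjusted p = 0.113 in limma). Slc12a2 had 18 peaks in all, the most of any Slc gene, 8 in exons outside the UTRs, 4 in introns and 6 in the 3′ UTR. Their summed level was 1578 ± 920 in G12D and 660 ± 387 in WT (SD, n = 6 each). Mean levels over the 12 libraries ran from 2.51 to 711 among these peaks, so a single exon peak held most of the mean signal on this mRNA. That did not hold in every library: the exon peak was as low as 266 in G12D, where the lowest sum over the 18 peaks was 776. The second highest of them, in the 3′ UTR at chr18:57945955-57946008 with a site of miR-15 and miR-16, had a mean of 64.4. At the exon peak at chr18:57911966-57912017, with sites of miR-130 and miR-148, values were 13.9, 22.8 and 118 in G12D against 4.53, 40.6 and 119 in WT, and the sign of its fold change (0.09 in limma) turned in edgeR and DESeq2.

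**Figure D2:**
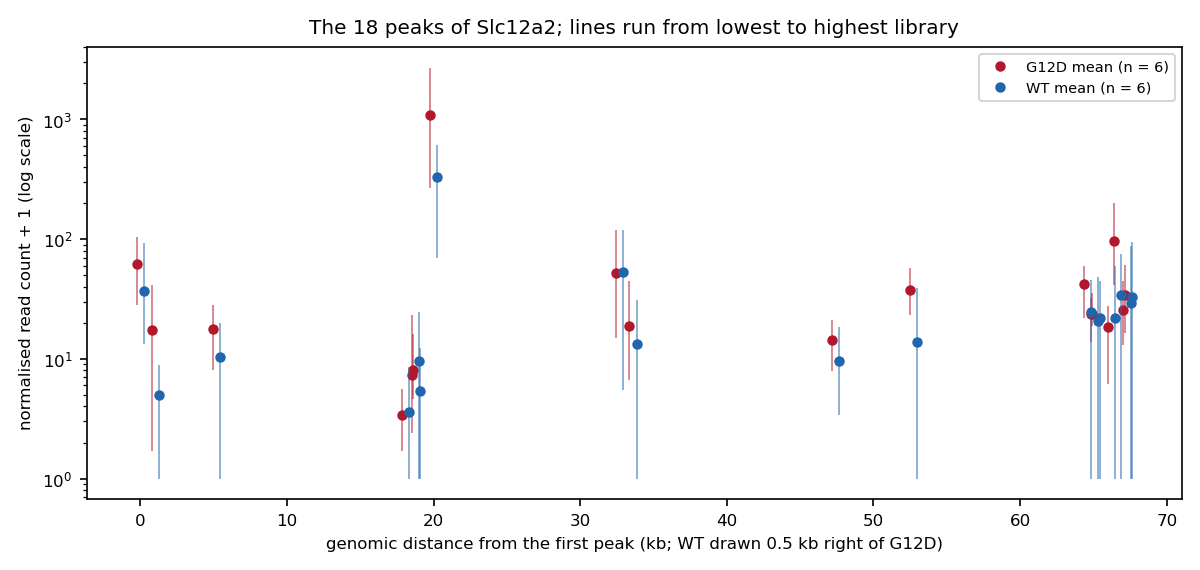
Mean normalised read count + 1 (log scale) of the 18 Slc12a2 peaks against genomic distance from the first of them in kilobases, for G12D (red) and WT tumours (blue, n = 6 each), with lines from the lowest to the highest library. The exon peak near 20 kb stands above all others in both genotypes, and G12D and WT ranges overlap at every peak.

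Thiamine entry came next in height. Slc19a2 encodes the thiamine transporter THTR1, and its 3′ UTR peak had 220, 440 and 662 normalised counts as lowest, median and highest in G12D, against 9.06, 183 and 574 in WT. The mitochondrial aspartate-glutamate carrier Slc25a13, known as citrin, had a 3′ UTR peak with a let-7 8mer at chr6:6042142-6042209, with 162, 341 and 675 in G12D against 13.6, 127 and 402 in WT. In both genes the 2 shallow WT libraries gave the lowest values, and the other 4 WT libraries overlapped with G12D. Slc35d2, a Golgi carrier of nucleotide sugars whose peak also has a let-7 8mer, had 126, 191 and 334 in G12D against 4.53, 111 and 428 in WT, and its highest library was WT replicate 4.

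Amino acid transporters were the largest substrate group, with 30 peaks on 13 genes, 21 of the peaks in 3′ UTRs. Slc38a2, encoding SNAT2, the system A carrier that takes up glutamine and alanine and is induced when amino acids are short, had 8 peaks. Its highest, in the 3′ UTR at chr15:96687967-96688032, had 250, 312 and 422 in G12D against 19.3, 169 and 282 in WT, and its sites were of miR-140, miR-200 with miR-429, and miR-7. The 8 peaks summed to 738 ± 165 in G12D and 397 ± 281 in WT (SD, n = 6 each). Slc36a1, the lysosomal proton-coupled amino acid exporter PAT1, had 3 peaks that summed to 505 ± 171 in G12D and 280 ± 148 in WT. Its highest 3′ UTR peak carried sites of both the miR-17 and the miR-19 family, whose miRNAs come from shared clusters, and had 88.0, 282 and 713 in G12D against 0, 129 and 436 in WT. The leucine transporter LAT1 is made of Slc7a5 and the heavy chain Slc3a2. Slc7a5 had a 3′ UTR peak with a miR-194 site and 150, 235 and 400 in G12D against 0, 174 and 359 in WT. The 3 Slc3a2 peaks summed to 82.6 ± 21.5 in G12D and 40.9 ± 36.2 in WT. In the related light chain gene Slc7a6, a 3′ UTR peak with sites of let-7, miR-205 and miR-7 had 72.6, 185 and 341 in G12D against 9.06, 47.9 and 220 in WT.

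Among the remaining strong peaks, Slc16a1, the lactate and butyrate transporter MCT1, had an exon peak with no strong site and with 109, 183 and 317 in G12D against 4.53, 93.6 and 149 in WT. Slc25a3, the mitochondrial phosphate carrier, had 62.5, 145 and 304 in G12D against 13.6, 59.1 and 153 in WT at a 3′ UTR peak with sites of miR-148 and of miR-200. The potassium-chloride cotransporter Slc12a7 (KCC4) had a 3′ UTR peak that joins sites of miR-17, miR-19 and miR-130, with 102, 122 and 180 in G12D against 4.53, 67.9 and 106 in WT. For the bicarbonate cotransporter Slc4a7 (NBCn1), a 3′ UTR peak with a let-7 site had 76.4, 107 and 249 in G12D against 4.53, 46.2 and 106 in WT. The other peaks among the 20 highest, on Slc10a5, Slc22a23, Slc35f2, Slc9a3r1 and second peaks of genes already named, had means of 70.2 to 193 over the 12 libraries.

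**Figure D3:**
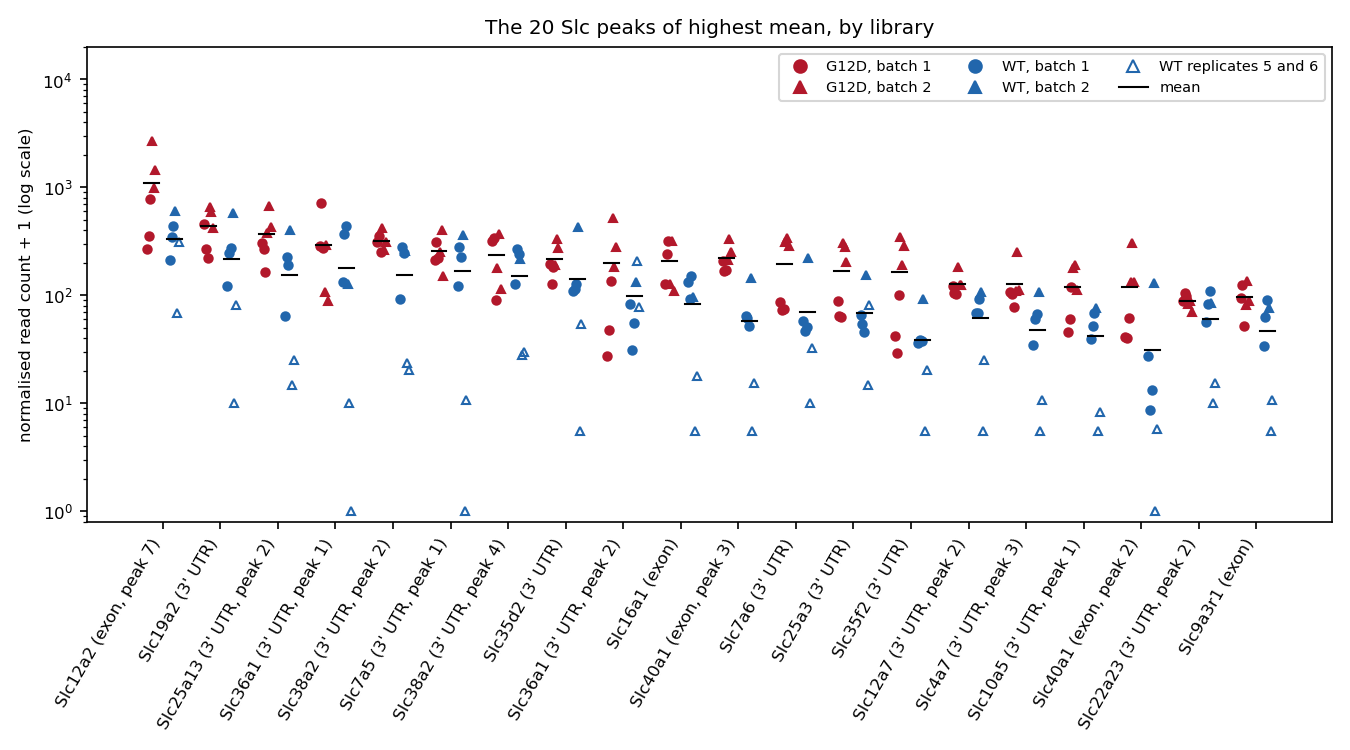
Normalised read count + 1 (log scale) in each library for the 20 Slc peaks of highest mean, G12D (red) left of WT (blue) at each peak, with circles for batch 1, triangles for batch 2, open triangles for WT replicates 5 and 6 and a bar at the mean of each genotype. The open triangles are the lowest points at most peaks, and of these 20 peaks only the third peak of Slc40a1 (165 to 329 in G12D, 4.53 to 143 in WT) separates the genotypes.

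The comparison of G12D with WT tumours asked which Slc peaks differ with K-Ras-G12D. In the limma fit over all 7527 peaks with a mean of at least 5, of which 150 are Slc peaks, none of the Slc peaks passed an adjusted p of 0.05 in either direction, and the background was 0 percent called both higher and lower. The smallest adjusted p of an Slc peak was 0.108 in limma. At an unadjusted p under 0.05 in limma, 52 Slc peaks were higher in G12D, where the background was 35.9 percent, and 2 were lower, where it was 0.173 percent. Most of the direction is shared with the whole table: 145 of the 150 Slc peaks had a log2 fold change above 0, as did 96.1 percent of all tested peaks, and the median was 1.27 for Slc peaks and 1.33 over all. Within batch 1 these medians were 0.38 and 0.44, within batch 2 they were 2.29 and 2.24, and without WT replicates 5 and 6 they were 0.33 and 0.38. A relative log2 fold change below is therefore the peak's own minus the median of all tested peaks in the same fit, and 72 of the 150 Slc peaks were above 0 on that scale.

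DESeq2 on the recovered reads called 9 Slc peaks higher in G12D (background 10.1 percent) and 2 lower (background 0.359 percent), and 1 Slc peak got no adjusted p. The 9 were 3 peaks of Slc40a1 and 1 each of Slc25a24, Slc10a5, Slc44a1, Slc35a1, Slc35d1 and Slc35f2, and the 2 were on Slc30a2 and Slc44a5. Of the 9, 7 stand in the authors' peak list for G12D tumours alone and 2 in the lists of both genotypes. Among all Slc peaks, 101 of 153 stand in the G12D list alone (66.0%, against 71.9% of all annotated peaks). Such peaks entered the data through G12D signal in these same tumours, so their being higher in G12D is not independent of how they were found. Without WT replicates 5 and 6, DESeq2 called 4 higher (2.11 percent), the same 3 of Slc40a1 and 1 of Slc26a2, and 1 lower (0.159 percent), on Slc30a2. edgeR's quasi-likelihood test called no Slc peak higher (0.0531 percent) and the same 2 lower (0.0797 percent). Other settings gave 9 higher and 2 lower when 5 was added before the logarithm (background 6.72 and 0.093 percent), 0 and 2 in edgeR with TMM factors (0.0133 and 0.146 percent), 2 and 2 in DESeq2 with size factors from the peaks (0.425 and 0.903 percent), 0 and 1 when each library was centred on its median peak (0.0133 and 0.093 percent), 15 and 2 with library quality weights (10.8 and 0.505 percent), and 5 and 0 in batch 2 alone (3.11 percent higher). The limma count depended on single libraries: without WT replicate 4 it became 61 higher (45.1 percent) and 2 lower (0.173 percent). At an adjusted p under 0.05, the authors' deposited table had 8 of the 153 Slc peaks higher (9.77 percent of its 7730 peaks) and 2 lower (0.349 percent). All 6 G12D libraries lay above all 6 WT libraries at 3 Slc peaks, 2 of Slc40a1 and 1 of Slc35d1, where 1.7 percent of all tested peaks did so, and at no Slc peak did they all lie below.

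Slc40a1 encodes ferroportin, the iron exporter of enterocytes and macrophages, whose mRNA has an iron-responsive element in its 5′ UTR. It had 5 peaks along the transcript on chromosome 1, with summed levels of 511 ± 236 in G12D and 131 ± 139 in WT (SD, n = 6 each). The highest, in an exon at chr1:45911467-45911532, had 206, 165, 169, 210, 329 and 249 normalised counts in G12D replicates 1 to 6, against 63.6, 60.6, 51.4, 143, 4.53 and 14.5 in WT replicates 1 to 6. Every G12D library was above every WT library. Its log2 fold change was 2.55 in limma (SE 0.70, adjusted p = 0.108) and 1.91 in DESeq2 (SE 0.56, adjusted p = 0.0203).

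A lower exon peak of Slc40a1 at chr1:45918330-45918398 separated the genotypes in the same way, with 17.4, 15.9, 16.2, 13.7, 24.8 and 22.7 in G12D against 4.89, 1.89, 3.35, 7.90, 0 and 2.41 in WT. The 3′ UTR peak at chr1:45908281-45908340 had 45.8, 29.0, 60.2, 121, 91.8 and 83.7 in G12D against 15.7, 9.47, 13.4, 34.6, 4.53 and 4.82 in WT, where WT replicate 4 was above the lowest G12D library. DESeq2 gave both an adjusted p of 0.00335, with log2 fold changes of 2.03 (SE 0.47) and 2.13 (SE 0.49). The 2 other peaks, in an exon and in the 5′ UTR, overlapped more, with 39.4 to 305 in G12D against 0 to 129 in WT, and 28.5 to 160 in G12D against 4.53 to 83.9 in WT. The first of these stands in the authors' WT peak list and not in their G12D list, although its mean was higher in G12D, and it is the Slc peak without an adjusted p in DESeq2.

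Relative to the median of all peaks, the 5 Slc40a1 peaks had log2 fold changes of 0.55 to 1.64 in limma, and of 0.21 to 1.40 without WT replicates 5 and 6. All 5 were thus above the median of all peaks with and without the shallow libraries. They share 1 mRNA, so they are 5 readings of the same transcript and not 5 independent results. Ferroportin is also made by macrophages, and of the leukocyte markers only H2-Eb1 had a peak, at the levels given above; its part in the Slc40a1 values was not tested.

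The 5 Slc40a1 peaks carried strong sites of 8 seed families, miR-17, miR-34 with miR-449, miR-103 with miR-107, miR-16-1-3p, miR-24, miR-193, miR-27 and miR-29. Of 20 miRNAs of these families tested in the miRNA libraries, 1 was higher and 1 lower in G12D by limma at an adjusted p under 0.05, where the background over all 284 miRNAs was 1.76 percent higher and 2.11 percent lower. This pair was looked up after the Slc40a1 values were seen, and the sequences are given because their seeds match the 2 Slc40a1 peaks with a site of miR-34 and miR-449 and the exon peak with a miR-193 8mer.
miR-449a-5p: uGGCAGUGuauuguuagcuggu
miR-34a-5p: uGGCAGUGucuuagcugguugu
miR-193a-3p: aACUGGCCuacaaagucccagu
In normalised counts of the miRNA libraries, miR-449a-5p had 48.9, 81.1 and 110 as lowest, median and highest in G12D, against 119, 213 and 446 in WT, so the genotypes did not overlap. Its log2 fold change was -1.43 (SE 0.28, adjusted p = 0.0158 in limma). miR-34a-5p, which has the same seed and a far higher level, had 6154 ± 1075 in G12D and 6561 ± 792 in WT (SD, n = 6 each). miR-193a-3p had 34.6, 106 and 187 in G12D against 30.5, 35.4 and 55.6 in WT, with a log2 fold change of 1.27 (SE 0.32, adjusted p = 0.0444 in limma).

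Slc30a2 had the lowest log2 fold change of the Slc peaks. It encodes ZnT2, which loads zinc into secretory vesicles and, in mice, is known from the granules of Paneth cells and from the mammary gland. Its only peak, in the 3′ UTR at chr4:134353186-134353246 and without a strong site, had 0.482, 0, 0, 5.98, 4.13 and 1.42 in G12D replicates 1 to 6, against 22.0, 9.47, 2.24, 36.0, 13.6 and 41.0 in WT replicates 1 to 6. In reads this was 1, 0, 0, 7, 8 and 2 in G12D against 45, 5, 2, 73, 3 and 17 in WT. The groups overlapped through WT replicate 3, while the shallow WT libraries were not low here. The log2 fold change was -2.85 in limma (SE 0.71, adjusted p = 0.108), and DESeq2 gave -3.68 (SE 0.65, adjusted p = 4.05e-05) with all libraries and an adjusted p of 0.000764 without WT replicates 5 and 6. Within batch 1 it was -3.01 and within batch 2 it was -2.68 in limma.

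Slc44a5, a member of the choline transporter-like family, had an exon peak with a let-7 site at chr3:154243559-154243614. It had 0.482, 0, 0, 5.98, 0 and 0 in G12D against 1.47, 3.79, 1.12, 38.5, 9.06 and 65.1 in WT, and WT replicates 4 and 6 held most of the reads. DESeq2 gave a log2 fold change of -3.69 (SE 1.14, adjusted p = 0.0274), and the adjusted p was 0.0846 in DESeq2 without WT replicates 5 and 6. Both peaks stand in the authors' WT list alone, as do 6 other Slc peaks (8 in all, 5.23% of Slc peaks against 1.96% of all annotated peaks). Those lists were called from these same tumours, so membership adds no independent evidence. The same holds for the 66.0% of Slc peaks in the G12D list alone, against 71.9% of all annotated peaks.

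**Figure D4:**
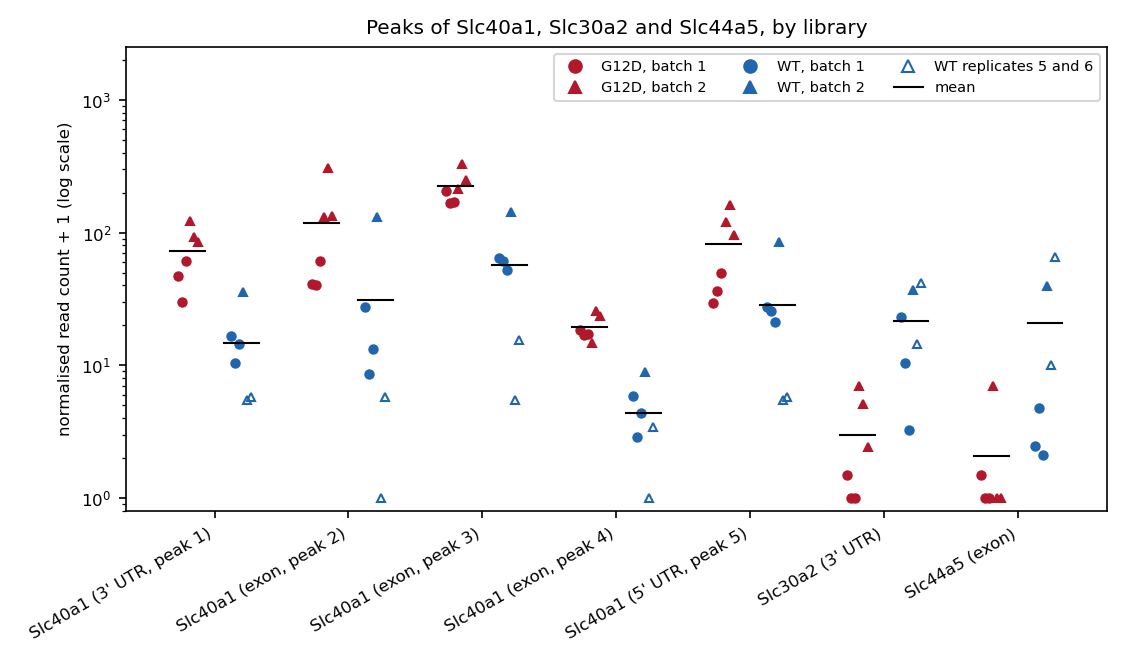
Normalised read count + 1 (log scale) in each library for the 5 Slc40a1 peaks and the single peaks of Slc30a2 and Slc44a5, G12D (red) left of WT (blue), with circles for batch 1, triangles for batch 2, open triangles for WT replicates 5 and 6 and a bar at each mean. Slc40a1 peaks 3 and 4 show no overlap between genotypes (165 to 329 in G12D and 4.53 to 143 in WT at peak 3), while Slc30a2 and Slc44a5 lie lower in G12D with some overlap.

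Metals held both the highest and the lowest log2 fold change of the Slc peaks. Its 15 peaks on 9 genes had a median relative log2 fold change of 0.49 in limma, but -0.05 without WT replicates 5 and 6. DESeq2 called 3 of them higher, all on Slc40a1, and 1 lower, beside 10.1 and 0.359 percent of all tested peaks. Beside Slc40a1 and Slc30a2, the zinc and manganese importer Slc39a8 (ZIP8) had an exon peak with 4.63, 14.0 and 19.8 in G12D against 7.83, 21.4 and 116 in WT, and the value of 116 came from WT replicate 6 alone. Slc39a4 (ZIP4), the zinc importer of the apical gut membrane, had 11.4, 22.2 and 37.3 in G12D against 4.53, 21.9 and 38.0 in WT, which overlap almost throughout. The copper importer Slc31a1 (CTR1) had a 3′ UTR peak with let-7 and miR-196 sites and 23.9, 46.1 and 105 in G12D against 0, 21.9 and 86.9 in WT. The zinc transporters Slc30a4, Slc30a7, Slc39a1 and Slc39a11 made up the rest, with relative log2 fold changes between -0.85 and 0.59, and between -0.27 and 0.16 without WT replicates 5 and 6.

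The Slc35 family, whose nucleotide sugar carriers feed glycosylation in the Golgi, formed a group of 21 peaks on 11 genes. Genes were grouped by family number alone, so not every member need carry a nucleotide sugar. The median relative log2 fold change of the 21 peaks was 0.03, and 0.13 without WT replicates 5 and 6. DESeq2 called 3 of the 21 higher, beside 10.1 percent of all tested peaks. Slc35d1, which brings UDP-glucuronic acid and UDP-N-acetylgalactosamine into the endoplasmic reticulum, had an exon peak with a miR-30 site at chr4:103211309-103211369. It had 7.24, 10.4, 6.94, 11.1, 12.9 and 8.52 in G12D against 2.94, 0, 0, 6.91, 0 and 0 in WT. All G12D libraries were above all WT libraries, by a margin of less than 1 read's worth at the nearest pair, and the adjusted p was 0.0384 in DESeq2 and 0.108 in limma. The CMP-sialic acid transporter Slc35a1 had a 3′ UTR peak with 7.72, 27.7 and 44.4 in G12D against 0, 3.96 and 10.4 in WT (log2 fold change 1.88, SE 0.58, adjusted p = 0.0269 in DESeq2). Slc35f2, a plasma membrane member of this family, had a 3′ UTR peak with a site of miR-25 and miR-92 and 28.3, 144 and 343 in G12D against 4.53, 36.1 and 91.3 in WT (adjusted p = 0.0471 in DESeq2). Without WT replicates 5 and 6, the adjusted p in DESeq2 was 0.169 for Slc35d1, 0.192 for Slc35a1 and 0.231 for Slc35f2.

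Mitochondrial carriers had 16 peaks on 12 genes and a median relative log2 fold change of -0.09, which turned to 0.05 without WT replicates 5 and 6. DESeq2 called 1 of the 16 higher, beside 10.1 percent of all tested peaks. The called peak was on Slc25a24, an ATP-Mg/phosphate carrier activated by calcium. That exon peak, with sites of miR-15 and miR-16 and of miR-29, had 6.91, 27.2 and 50.4 in G12D against 0, 8.49 and 17.0 in WT (adjusted p = 0.0465 in DESeq2, and 0.295 without WT replicates 5 and 6). Slc25a20, the carnitine-acylcarnitine carrier needed for fatty acid oxidation, was among the lowest of the group, with 4.84, 26.1 and 35.5 in G12D against 7.83, 13.2 and 54.4 in WT, the last from WT replicate 5. The citrate carrier Slc25a1 had 29.7, 77.1 and 156 in G12D against 18.1, 27.4 and 70.6 in WT.

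The remaining groups had few calls. Sodium, potassium and calcium transporters (23 peaks on 5 genes, 18 of them Slc12a2) had a median relative log2 fold change of -0.23, and acid-base and anion transporters (15 peaks on 6 genes) one of -0.18, with no call by DESeq2 in either. Without WT replicates 5 and 6 these medians were -0.05 and -0.03. Monocarboxylate and other organic acid transporters (9 peaks on 5 genes) had -0.43, and this group includes Slc16a3, the lactate exporter MCT4, whose 3 exon peaks summed to 71.1 ± 29.7 in G12D and 49.2 ± 38.6 in WT (SD, n = 6 each). Choline transporter-like genes (11 peaks on 4 genes) had -0.10, and -0.34 without WT replicates 5 and 6. They include Slc44a5, called lower by DESeq2, and 7 peaks of Slc44a1, summed to 103 ± 24.3 in G12D and 59.0 ± 40.1 in WT, of which DESeq2 called 1 higher, an exon peak with a miR-7 site (adjusted p = 0.0496).

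The bile acid and organic ion transporters (5 peaks on 3 genes) had a median of 0.53, 0.24 without WT replicates 5 and 6. Here Slc10a5, a liver and kidney member of the bile acid transporter family, had a 3′ UTR peak with 44.9, 114 and 192 in G12D against 4.53, 44.9 and 74.6 in WT. Its exon peak had 4.84, 21.1 and 38.5 in G12D against 0, 3.57 and 22.2 in WT, and sat just inside the DESeq2 threshold (adjusted p = 0.04996). At both Slc10a5 peaks the annotation also named another gene, so their reads could come from either. The groups with 3 peaks or fewer were sugars (Slc37a1, Slc37a2 and the monocarboxylate cotransporter Slc5a8 of the sodium-glucose family), phosphate (Slc20a1 and Slc20a2) and others (Slc19a2, Slc33a1 and Slc46a1). Slc33a1, which carries acetyl-CoA into the endoplasmic reticulum, had 23.2, 40.7 and 94.9 in G12D against 0, 12.3 and 53.8 in WT, with a relative log2 fold change of 1.19, and of 0.31 without WT replicates 5 and 6.

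**Figure D5:**
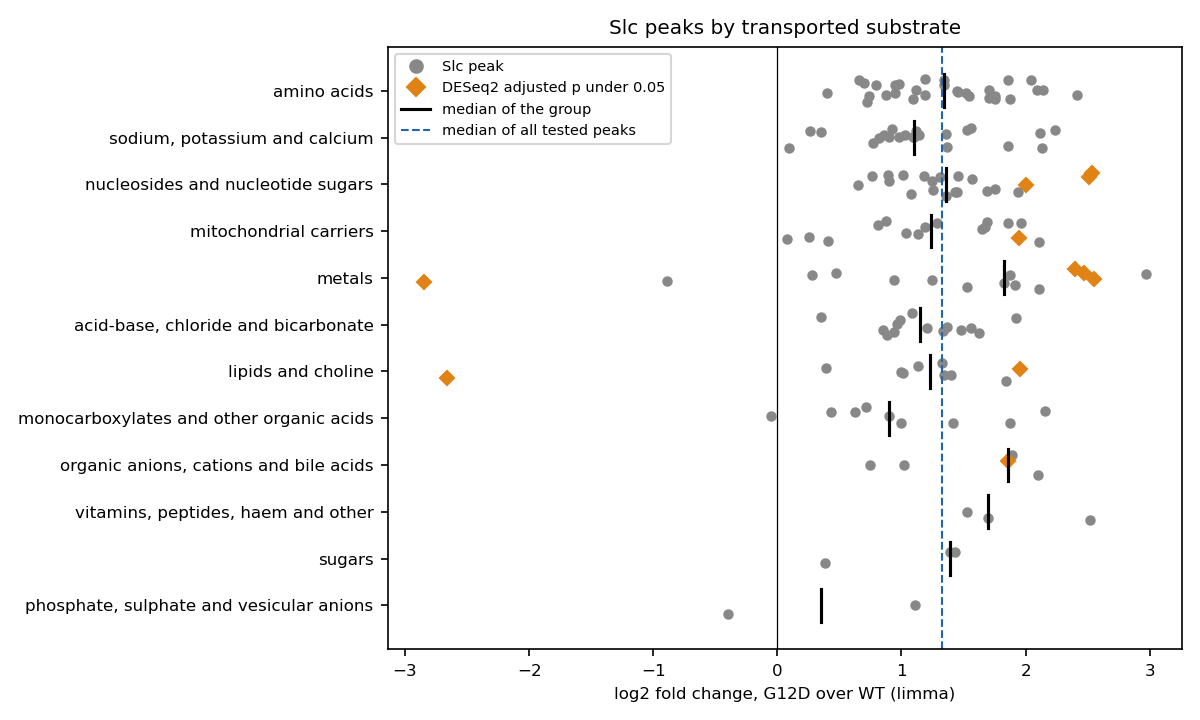
Limma log2 fold change of G12D over WT (horizontal axis) for the 150 tested Slc peaks by transported substrate, with DESeq2 calls as orange diamonds, group medians as black bars and the median of all tested peaks (1.33) as a dashed line. Most groups centre near the dashed line, and metals and the choline transporter-like genes hold calls in both directions.

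Slc26a2, a sulphate transporter that supplies mucin and matrix sulphation, had 7 peaks, 6 in the 3′ UTR, summed to 147 ± 32.2 in G12D and 96.7 ± 51.4 in WT (SD, n = 6 each). The 3′ UTR peak at chr18:61198022-61198078, with miR-135 and miR-27 sites, had 15.2, 30.3 and 36.9 in G12D against 2.41, 9.04 and 63.4 in WT. All G12D libraries lay above WT replicates 1 to 4 here, and the highest value of all was that of WT replicate 5, where it stands for 14 reads. DESeq2 called this peak without WT replicates 5 and 6 (adjusted p = 0.0165), but not with them (adjusted p = 0.177).

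Batch separated some Slc peaks that genotype did not, at shares near those of all tested peaks. All 6 libraries of batch 2 were above all 6 of batch 1 at 3 Slc peaks, among them those of Slc20a2 and Slc37a2, where 1.66 percent of all tested peaks were, and below them at 2 Slc12a2 peaks, where 1.9 percent were. Slc37a2 encodes a sugar-phosphate exchanger, and its exon peak had 9.06 to 67.5 in batch 2 against 3.46 to 5.68 in batch 1, including both shallow WT libraries. Without WT replicates 5 and 6, 30 of the 150 Slc peaks were higher in every batch 2 library than in every batch 1 library, against 24.2 percent of all tested peaks, among them Slc7a6 (220 to 341 in batch 2 against 45.5 to 85.9 in batch 1) and Slc25a3 (153 to 304 in batch 2 against 44.7 to 86.8 in batch 1). The labels give the batch as a number only. In the limma test of the interaction of genotype with batch, no Slc peak passed an adjusted p of 0.05 (smallest adjusted p = 0.369), where the background was 0.0399 percent called.

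The miRNAs of the 5 leading families were not called between genotypes. Of 24 such miRNAs tested by limma, none passed an adjusted p of 0.05, also with DESeq2 and in every fit that left out a library. let-7i-5p, the most abundant let-7, had 5502 ± 554 normalised counts in G12D and 5630 ± 504 in WT, miR-16-5p had 2350 ± 240 in G12D and 2484 ± 128 in WT, and miR-20a-5p had 6400 ± 932 in G12D and 6108 ± 1065 in WT (SD, n = 6 each). miR-19b-3p had 11685 ± 3441 in G12D and 11275 ± 1505 in WT, and miR-27a-3p had 14882 ± 4293 in G12D and 13187 ± 3388 in WT. Each difference between means was smaller than the larger of its 2 SDs. The 24 Slc peaks with a let-7 site had a median relative log2 fold change of -0.10, against -0.04 for all peaks with a let-7 site. The 13 with a site of miR-15 and miR-16 had -0.32 against 0.19, and -0.25 against 0.11 without WT replicates 5 and 6. The 11 with a miR-17 family site had 0.24 against 0.04, and -0.0087 against 0.022 without these libraries. For miR-19 the 8 Slc peaks had 0.11 against -0.0086, and -0.0019 against 0.032 without them, and for miR-27 the 8 Slc peaks had -0.09 against 0.10, and 0.11 against 0.08 without them. These differences between medians were not tested.

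Transport genes that do not bear an Slc symbol were counted from lists of names. Carriers of the Mfsd, sideroflexin, Slco and related families (21 peaks on 12 genes) had a median relative log2 fold change of 0.40, and 0.40 without WT replicates 5 and 6, and DESeq2 called 8 of the 21 higher, beside 9 of 150 Slc peaks and 10.1 percent of all tested peaks. ABC transporters (13 peaks on 7 genes) had 0.09 with 1 call, and -0.12 without WT replicates 5 and 6. Pumps and channels (76 peaks on 31 genes) had -0.03, and -0.14 without these libraries, with 8 calls, all higher, a share near that of all tested peaks. Known partners of solute carriers, such as the MCT chaperone Bsg and the kinases Wnk1 and Sgk1 that regulate cotransporters (33 peaks on 8 genes), had -0.17 with 1 peak called higher and 1 lower.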

How the data were processed

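The deposited signal is, for 7730 merged peaks and for miRNAs, the authors' read count over each library's own size factor. The submitters' processing notes name the builds GRCm38 and mm10 and the tools DESeq2 and STAR 2.5.2b, with no role for any of them. Peak coordinates are as deposited. Column headers for peaks give mouse model and number alone, and these columns were read as mRNA libraries. Input libraries are not analysed here. Whole reads were recovered for 100% of values (tolerance 0.001 reads).

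limma 3.58.1 (R 4.3.3) was fitted to log2(value + 1) with batch as a covariate, on peaks with a mean of at least 5 and miRNAs with one of at least 10, and adjusted by Benjamini-Hochberg over all of them (threshold 0.05). The added 1 shrinks the fold changes of low peaks. edgeR 4.0.16 and DESeq2 1.42.0 served as alternatives on the recovered reads. The main limma fit, and edgeR and DESeq2 with the deposited size factors, were also run on simulated data. The other settings were not. Log2 fold changes and adjusted p-values of the authors' deposited table are named as theirs. The score in the peak lists per genotype, deposited without a stated unit, was used only to rank peaks. Annotation and seed sites are the authors'. The Wilson interval treats peaks as independent, although many share an mRNA, and the limit given for 0 reads covers counting error only.

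Members, substrate groups and lists were chosen with earlier results of these data known. Peaks were named for the 20 highest means, the 5 largest and 5 lowest log2 fold changes with a mean of at least 20, the 10 smallest adjusted p in DESeq2, and the highest peak of each group. Genes with 3 or more peaks were also to be named, but Slc25a10, Slc35a2, Slc35b4 and Slc38a1 do not appear above. In this order, their peaks summed to 69.5 ± 45.0, 85.6 ± 18.4, 69.1 ± 27.8 and 66.6 ± 26.5 in G12D. In WT the sums were 19.7 ± 16.3, 40.4 ± 21.3, 35.0 ± 26.3 and 42.7 ± 34.6 (SD, n = 6 each). 1 peak chosen by this rule is not reported here. Other peaks named were chosen after their values were seen.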

Additional observations from a re-analysis of the deposited data

Results flagged for a closer look

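Among 74 groups of 6 libraries examined (the named Slc peaks, each genotype apart), 13 had a library whose gap to its nearest neighbour was over the 95% critical share of the group's range. For independent, normally distributed values chance alone gives about 1 in 20. The groups share libraries and some share an mRNA, and all 13 flagged libraries were the highest of their group. The count therefore cannot be set against that rate. In G12D, replicate 4 was far above the others at the 3′ UTR peak of Slc12a7 (180) and at Slc44a5 (5.98), replicate 2 at the highest Slc36a1 peak (713), and replicate 5 at Slc40a1 peak 2 (305) and at the 3′ UTR peak of Slc4a7 (249). In WT, replicate 4 was the high library at Slc35d2 (428), Slc38a2 peak 8 (68.1), Slc40a1 peak 1 (34.6), Slc40a1 peak 2 (129), Slc44a2 (50.4) and Slc7a6 (220). It is the deepest WT mRNA library, with 770237 recovered reads. The shallow WT replicate 5 was the high library at Slc25a20 (54.4), and WT replicate 6 at Slc39a8 (116). The part of depth in these values was not tested.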

How the results depend on the processing

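In the limma fit of all 12 libraries 0 Slc peaks were called higher and 0 lower. Adding 5 instead of 1 before the logarithm gave 9 higher and 2 lower. DESeq2 gave 9 and 2 with the deposited size factors, 2 and 2 with size factors from the peaks, and 4 and 1 without WT replicates 5 and 6 (an alternative chosen after seeing the data). edgeR gave 0 and 2 with the deposited factors or with TMM, library quality weights gave 15 and 2, centring each library on its median peak gave 0 and 1, and batch 2 alone gave 5 and 0. Leaving out 1 library at a time gave 0 to 61 higher and 0 to 2 lower, with both highest counts without WT replicate 4, and a median log2 fold change of 0.92 to 1.53. The median, 1.27, turned to -0.30 with centring and to -0.053 with centring but without WT replicates 5 and 6 (also chosen after seeing the data), as the median of all peaks did. The cause of these differences was not tested.

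Among 37 named peaks, 870 of 989 values under 27 alternatives kept direction and side of the threshold, 68 passed the threshold newly, and 51 reversed. Under centring the log2 fold change was -0.0070 for Slc12a2 peak 7, -1.48 for Slc12a2 peak 8, -0.044 for Slc12a7 peak 2, -0.46 for Slc20a1, -0.55 for Slc22a23 peak 2, -1.32 for Slc25a20, -0.28 for Slc25a3, -0.14 for Slc35d2, -0.91 for Slc36a1 peak 2, -0.14 for Slc37a1, -0.62 for Slc38a2 peak 4, -1.29 for Slc39a4, -0.56 for Slc44a2 and -0.0090 for Slc9a3r1. Under edgeR with TMM it was -0.79 for Slc12a2 peak 8, -0.048 for Slc20a1, -0.086 for Slc22a23 peak 2, -0.89 for Slc25a20, -0.021 for Slc35d2, -0.44 for Slc36a1 peak 2, -0.66 for Slc39a4 and -0.52 for Slc44a2. DESeq2 with size factors from the peaks gave -0.84 for Slc12a2 peak 8, -0.11 for Slc20a1, -0.20 for Slc22a23 peak 2, -1.04 for Slc25a20, -0.060 for Slc35d2, -0.53 for Slc36a1 peak 2, -0.041 for Slc38a2 peak 4, -0.64 for Slc39a4 and -0.58 for Slc44a2. With the deposited factors, Slc12a2 peak 8 had -0.13 in both edgeR and DESeq2. Quality weights gave -0.065 for Slc12a2 peak 8, -0.19 for Slc25a20, -0.086 for Slc39a4, 0.069 for Slc39a8 and -0.15 for Slc44a2. Batch 1 alone gave -0.27 for Slc12a2 peak 8 and -0.052 for Slc39a4. Without WT replicates 5 and 6 the values were -0.65 for Slc12a2 peak 8, -0.19 for Slc39a4 and -0.11 for Slc44a2. Leaving out 1 library at a time gave -0.26 to 0.57 for Slc12a2 peak 8 (Slc12a2_8), -0.013 to 0.52 for Slc25a20 (Slc25a20_1) and -0.015 to 0.48 for Slc39a4 (Slc39a4_1).

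The main fit did not pair tumours by replicate number. Deviations from the genotype mean correlated at -0.11 to 0.65 between same-numbered G12D and WT libraries, over 0.1 in 3 of 6. Those deviations still hold differences between batches. With deviations from the mean of genotype and batch, the correlations ran from -0.52 to 0.31. Such correlations cannot show whether the animals were paired. The fit with a replicate block called 0 Slc peaks higher and 0 lower. Depth limits the low peaks most: in WT replicate 5 a peak with no read could still have up to 3 reads, each worth 4.53 normalised counts.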
